A study of Mus musculus with 2 samples.

Results

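The regulators and effectors of adipocyte differentiation and lipid storage were examined as a set of 10 genes chosen by symbol, namely Pparg, Cebpa, Cebpb, Cebpd, Fabp4, Fabp5, Adipoq, Lpl, Cd36 and Plin2. All 10 were found among the 20211 gene symbols listed for cultured perivascular cells of the mouse aorta, and each stood on a single row. RNA was sequenced from 1 WT library and 1 Kai1 KO library, which carries a knockout of the gene for the tetraspanin KAI1 (CD82). Both libraries were labelled as perivascular cells (PVCs) from the aorta on a C57BL/6 background and were grown in serum-containing medium, with no adipogenic treatment given in the labels. Age and sex of the donor animals were not given for these libraries. The values were RPKM, reads scaled by transcript length and by the mapped reads of the library, so that levels of different genes can be compared. Summed over all symbols they came to 884463 in WT and 1238190 in Kai1 KO. The libraries were thus not on a common total, and ratios between them depend on the scaling. There were no replicates, so no p-value was computed, and an effect of genotype cannot be told apart from differences between the animals, the cultures or the library preparations.

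Fat cells form from mesenchymal precursors through a cascade of transcription factors. C/EBPβ and C/EBPδ, basic leucine zipper proteins, act early and induce PPARγ and C/EBPα, and these then sustain each other's expression and switch on the genes of the mature fat cell. The latter include lipoprotein lipase, which releases fatty acids from circulating triglyceride, CD36, which takes them up, FABP4 and FABP5, which carry them in the cytoplasm, perilipin 2, which coats the stored droplet, and the secreted hormone adiponectin. Cells of the vessel wall and of the fat around it have been studied as a source of adipocyte precursors, and several of these genes also have uses outside fat: PPARγ and FABP4 are made by macrophages and endothelial cells, FABP5 by many dividing and epithelial cells, and perilipin 2 by most cells that hold lipid droplets.

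The 10 genes did not move as a block. Fabp4 and Lpl were lower in the Kai1 KO library, at 42.9% and 5.63% of their WT levels, while Fabp5, the most abundant of the 10, was 1.71-fold higher. Cebpb was lower and Cebpd higher, so that the order of these early factors was reversed between the libraries. Pparg was at a low and nearly equal level in both, Plin2 was at 68.4% of WT, and Adipoq and Cd36 were listed at 0 in both. Cebpa was low in both libraries and 2.85-fold higher in Kai1 KO.

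Cd82, the targeted gene (chr2:93259268-93303297, NCBI37), was at 12.8 RPKM in WT and 2.62 RPKM in Kai1 KO, 20.5% of WT. The sample label of PVC was set against marker genes. Smooth muscle actin Acta2 was at 3823 RPKM in WT and 2580 in Kai1 KO, and the 11 mural markers, of which it was the largest part, summed to 4646 and 2978. Of the 7 mural markers with a mean of at least 1 RPKM, 4 were more than 2-fold lower in Kai1 KO (Mcam, Myh11, Cnn1 and Tagln, at log2 ratios of -3.78, -2.78, -1.28 and -1.04) and 0 higher. Of the 12 endothelial markers, 9 were below 1 RPKM in both libraries, Pecam1 being at 0.413 and 0, and the sum of all 12 was 46.5 in WT and 29.8 in Kai1 KO. Eng, which mural and stromal cells also make, was 42.0 and 21.4 of these sums, while Egfl7, at 2.28 and 7.39 RPKM, was the only endothelial marker past 2-fold and was higher in Kai1 KO. The 15 macrophage markers summed to 41.9 RPKM in WT and 19.7 in Kai1 KO, 4 of the 5 with a mean of at least 1 RPKM were more than 2-fold lower, Cd14 was higher, and the defining marker Emr1 was listed at 0 in both. The 8 proliferation markers summed to 106 in WT and 335 in Kai1 KO. Of 7 Y-linked genes, 4 were above 0 in WT (Ddx3y at 6.56 RPKM) and 0 in Kai1 KO. Donor sex, which was not given, may therefore differ between the libraries, and it cannot be told apart from genotype here. The part of these differences in the values below was not tested, and in such bulk RNA fewer cells of a type and less RNA per cell cannot be told apart.

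For every gene the log2 ratio of Kai1 KO to WT was computed after adding 0.1 RPKM to each value, which understates the difference of low genes. Genes with a mean of at least 1 RPKM over both libraries were kept, and a ratio of more than 2-fold was counted as a call. Of 10068 genes kept, 7.81% were called lower and 7.98% higher in Kai1 KO, and the median log2 ratio was 0.08. Scaling both libraries to Gapdh lowers that median to -0.41, so the sign of any ratio or list median between 0 and about 0.5 depends on the scaling. Pparg, Cebpb, Cebpd, Fabp4, Fabp5 and Plin2 passed the filter, and Cebpa, Lpl, Adipoq and Cd36 did not. Of the 6 kept, 1 was called lower (Fabp4) and 0 higher, which is too few to set against the background shares. The log2 ratio was below 0 for 4 of them and above 0 for Cebpd and Fabp5, and their median was -0.33. Depth was estimated from the steps of low values at about 29650000 reads in WT and 26750000 in Kai1 KO. The reads given below rest on that estimate, and each 95% interval covers counting error only.

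**Figure D1:**
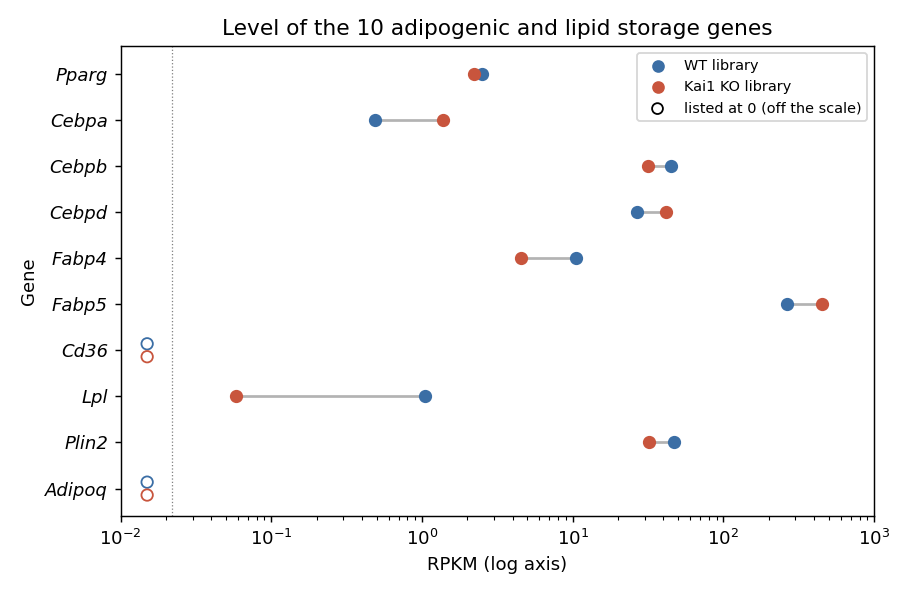
RPKM of the 10 genes on a log axis in the WT library (blue) and the Kai1 KO library (red), 1 library each and therefore without error bars, with genes listed at 0 drawn as open circles off the scale. Fabp5 is the highest in both libraries, Cebpb and Cebpd exchange their order, Lpl has the longest span and Adipoq and Cd36 are at 0.

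**Figure D2:**
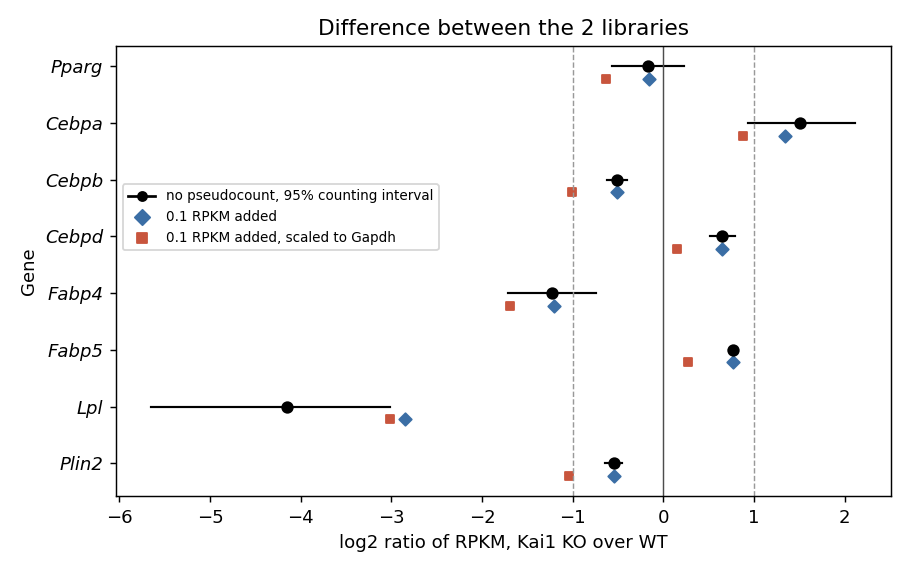
log2 ratio of Kai1 KO over WT for the genes of the set that were above 0, without an added value (black, with bars for the 95% counting interval from estimated reads), with 0.1 RPKM added (blue) and with both libraries also scaled to Gapdh (red), and with dashed lines at 2-fold. Lpl and Fabp4 lie beyond the lower 2-fold line, the bar of Fabp4 crossing it, Cebpa lies beyond the upper line except when scaled to Gapdh, Fabp5 and Cebpd lie above 0, and the interval of Pparg, drawn for the deposited scaling, spans 0.

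Cebpb encodes C/EBPβ, an early activator that is present in many stromal cells and is induced by hormonal and inflammatory signals. It was at 45.0 RPKM in WT and 31.7 in Kai1 KO, from about 1728 and 1097 reads (chr2:167514415-167515918). The WT library was the higher, and the log2 ratio was -0.51 with an interval from -0.62 to -0.40 without the added 0.1. Cebpd, its partner in the early phase, was at 26.5 RPKM in WT and 41.7 in Kai1 KO, from about 763 and 1083 reads (chr16:15887379-15888559, where the GENCODE M1 annotation types the locus as a pseudogene). Here the Kai1 KO library was the higher, 1.57-fold, with a log2 ratio of 0.65 and an interval from 0.52 to 0.79. Neither passed 2-fold on its own. Their ratio within a library does not depend on how the libraries are scaled. There were 1.70 Cebpb for each Cebpd in WT and 0.760 in Kai1 KO, a change of -1.16 ± 0.17 on the log2 scale (95% counting half-width). It was 1 of 8 pairs computed for these genes and their relatives.

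Cebpa, which encodes the late activator C/EBPα of maturing adipocytes, was at 0.484 RPKM in WT and 1.38 in Kai1 KO, from about 35 and 90 reads (chr7:35904312-35906945). Its mean of 0.933 RPKM lay just below the filter. The level was low in both libraries and higher in Kai1 KO, with a log2 ratio of 1.34, or 1.51 with an interval from 0.93 to 2.12 without the added 0.1. The 3 activators summed to 72.1 RPKM in WT and 74.8 in Kai1 KO. With the deposited scaling their total thus differed little while its parts differed. The likeness of the totals depends on that scaling, and the shares within each library do not. Cebpb made up 62.5% of that sum in WT and 42.4% in Kai1 KO, Cebpd 36.8% and 55.8%, and Cebpa 0.672% and 1.85%. Ddit3, the C/EBP relative that dimerizes with these factors and blocks their binding, was the most abundant of the family. It was at 479 RPKM in WT and 193 in Kai1 KO, a log2 ratio of -1.31.

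Pparg encodes PPARγ, the nuclear receptor required for fat cell formation and the target of thiazolidinedione drugs. It was at 2.49 RPKM in WT and 2.22 in Kai1 KO, from about 122 and 98 reads (chr6:115311239-115440419). The libraries were close, with a log2 ratio of -0.16, and 34.9% of the genes kept had a lower ratio. The counting interval of the ratio without the added 0.1, from -0.57 to 0.23, included 0, so that no difference was detectable at this depth with the deposited scaling. With both libraries scaled to Gapdh the ratio was -0.64, which lies beyond that interval. The related receptor Ppard was the more abundant, at 12.6 RPKM in WT and 10.7 in Kai1 KO. There were 5.07 Ppard for each Pparg in WT and 4.81 in Kai1 KO, a change of -0.08 ± 0.41 on the log2 scale. The common partner of both receptors, Rxra, was at 7.01 and 7.20 RPKM, a log2 ratio of 0.04 that turns to -0.45 when both libraries are scaled to Gapdh.

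Pparg has several start sites, of which a late one drives the adipocyte form PPARγ2. The deposited value is 1 per symbol, so the forms could not be separated. The windows of 250 bases before the starts, from RefSeq on GRCm38.p6, were available for 6 of the 10 genes, with 3 windows for Pparg, and not for Cebpd, Fabp4, Fabp5 and Lpl. They were searched on both strands for the C/EBP motif TTGCNNAA, which 9.56% of all 32851 promoter windows held, for the direct repeat element DR1 bound by PPAR and RXR (0.338%), for CACGTG (6.02%), for TATAAA (12.4%) and for CCAAT (33.8%). The Pparg windows of starts 1 and 3 are shown because they are the extremes of this search among the regulators, and the Cebpa window because Cebpa is the regulator with the largest ratio. Letters that match a motif are in capitals, 5′ to 3′ on the strand of the gene.
Pparg start 1, chr6:115360894-115361143 (+): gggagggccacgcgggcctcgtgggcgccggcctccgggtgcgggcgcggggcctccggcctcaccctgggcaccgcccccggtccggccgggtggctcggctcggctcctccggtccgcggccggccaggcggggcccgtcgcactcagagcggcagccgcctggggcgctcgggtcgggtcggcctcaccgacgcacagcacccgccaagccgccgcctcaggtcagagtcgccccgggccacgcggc
Pparg start 3, chr6:115421816-115422065 (+): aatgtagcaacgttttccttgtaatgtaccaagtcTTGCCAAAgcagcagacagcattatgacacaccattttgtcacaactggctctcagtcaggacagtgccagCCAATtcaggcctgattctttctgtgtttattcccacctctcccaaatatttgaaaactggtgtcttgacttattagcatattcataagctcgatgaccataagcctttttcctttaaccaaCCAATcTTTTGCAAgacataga
Cebpa, chr7:35119043-35119292 (+): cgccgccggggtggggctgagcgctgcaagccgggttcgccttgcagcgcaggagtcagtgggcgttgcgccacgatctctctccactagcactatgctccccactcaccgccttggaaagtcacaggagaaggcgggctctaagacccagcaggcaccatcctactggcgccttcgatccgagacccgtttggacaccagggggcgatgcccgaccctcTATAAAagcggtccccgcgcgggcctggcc
The window of start 1 had a GC content of 82.4% and held none of the motifs. That of start 3 had a GC content of 40.8% and held the C/EBP letters at 2 places, 215 to 208 and 16 to 9 bases before the start, and CCAAT at 144 to 140 and 22 to 18. The Cebpa window held TATAAA at 30 to 25 bases before the start and no other motif, and the Cebpb window, of 81.6% GC, held none. The window of Adipoq held CCAAT at 3 places, and those of Cd36 and Plin2 at 1 place each. The DR1 element was in none of the 8 windows. These matches describe letters and not binding.

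Fabp4 encodes the cytoplasmic fatty acid carrier that is among the most abundant proteins of fat cells. It was at 10.6 RPKM in WT and 4.53 in Kai1 KO, from about 134 and 52 reads (chr3:10204347-10208576). The WT library was the higher by 2.33-fold, a log2 ratio of -1.20, and 5.73% of the genes kept had a lower one. The counting interval without the added 0.1 ran from -1.71 to -0.75 and so includes a difference of less than 2-fold. As given above, the markers of macrophages, cells known to make FABP4, were also lower in Kai1 KO in sum, with Cd14 as an exception. Endothelial markers were lower in sum too, at 46.5 RPKM in WT and 29.8 in Kai1 KO, but that fall lay in Eng. Eng, which mural and stromal cells also make, was at 42.0 and 21.4 RPKM, and Egfl7 was higher in Kai1 KO. Of the 9 endothelial markers below the filter, 6 were lower in Kai1 KO and 0 higher. Genes below the filter leaned lower in general. Without it 1878 of all genes were called lower and 1205 higher, against 786 and 803 with it. The part of these marker differences in the Fabp4 value was not tested.

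Fabp5, its close relative of skin, macrophages and many dividing cells, was at 263 RPKM in WT and 448 in Kai1 KO, from about 6049 and 9311 reads (chr3:10012548-10016607). It ranked 396 among all symbols in WT and 294 in Kai1 KO. The log2 ratio was 0.77 with an interval from 0.72 to 0.82, and 86.3% of the genes kept had a lower ratio. The value of Fabp5 carries an uncertainty that the interval does not cover, since its transcript had 4 other matches of at least 90% identity over at least 200 bases in the mm9 genome, the best at 98.7%. Proliferation markers were higher in the same library, and the part of this in the Fabp5 value was not tested. Within a library there were 24.9 Fabp5 for each Fabp4 in WT and 99.0 in Kai1 KO, a change of 1.99 ± 0.47 on the log2 scale.

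The carriers belong to a family that includes Fabp3 of heart and muscle and Pmp2 of myelin. The gapless stretch of 60 coding bases with the most positions identical in all 4 genes is shown, from transcripts of the GENCODE M1 annotation. It shows how alike the measured genes are at their closest, and where reads could tell them apart. The 34 positions identical in all 4 are in capitals, and bases are counted from the start codon.
Fabp3, bases 55 to 114: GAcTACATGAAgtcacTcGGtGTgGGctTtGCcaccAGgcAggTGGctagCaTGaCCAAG
Fabp4, bases 55 to 114: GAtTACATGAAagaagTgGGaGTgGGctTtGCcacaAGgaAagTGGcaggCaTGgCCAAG
Fabp5, bases 61 to 120: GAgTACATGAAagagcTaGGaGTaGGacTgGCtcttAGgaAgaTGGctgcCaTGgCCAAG
Pmp2, bases 55 to 114: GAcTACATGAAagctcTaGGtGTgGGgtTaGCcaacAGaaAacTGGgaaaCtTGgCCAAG
Over the whole coding sequence Fabp4 and Fabp5 were identical at 60.7% of aligned bases, and the longest run their transcripts shared was 12 bases. Fabp4 and Pmp2 were the closest pair, with 71.4% identity and a longest shared run of 23 bases. For Fabp4 and Pmp2 0 other genome matches of at least 90% were found, and for Fabp3 there was 1, at 99.1%.

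Fabp3 differed more than Fabp4 or Fabp5. It was at 118 RPKM in WT and 26.2 in Kai1 KO, a log2 ratio of -2.16. Pmp2 was at 0.639 RPKM in WT and 8.95 in Kai1 KO, from about 22 and 276 reads, a log2 ratio of 3.61. The other fatty acid binding proteins were at or near 0, with 5 of 10 listed at 0 in both libraries. The sum of the 10 was 392 RPKM in WT and 488 in Kai1 KO. Fabp5 made up 67.0% of it in WT and 91.9% in Kai1 KO, Fabp3 30.1% and 5.37%, Fabp4 2.69% and 0.928%, and Pmp2 0.163% and 1.84%. The family was thus made up almost wholly of Fabp5 in Kai1 KO and of Fabp5 and Fabp3 in WT.

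**Figure D3:**
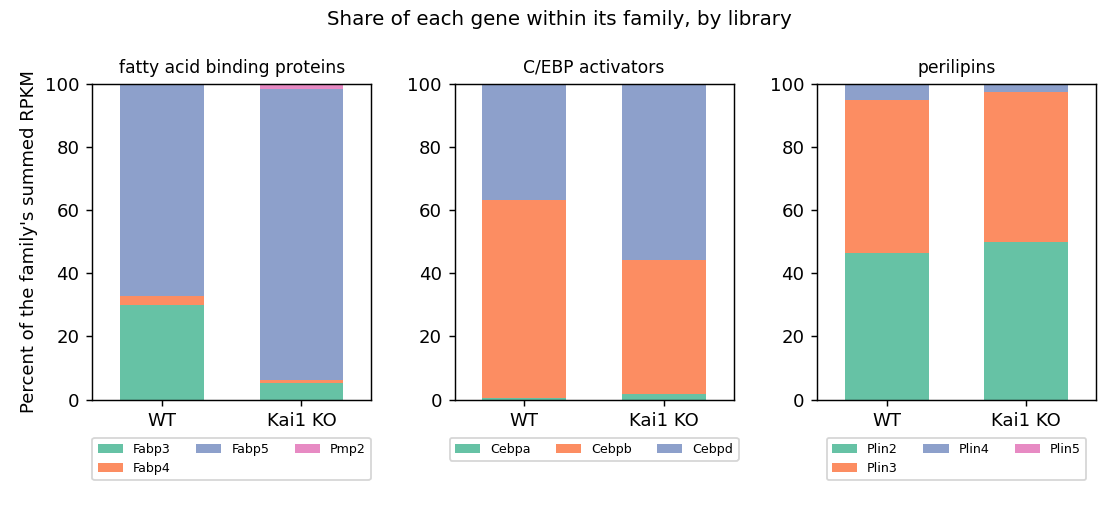
Share in percent of each gene in the summed RPKM of its family, for the fatty acid binding proteins, the C/EBP activators and the perilipins, in the WT and the Kai1 KO library. Fabp5 goes from 67.0% to 91.9% of its family and Cebpd from 36.8% to 55.8%, while the share of Plin2 is close in both libraries.

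Fabp4, Fabp5, Pmp2, Fabp9 and Fabp12 lie in 1 cluster on chromosome 3. From the start of Fabp4, Pmp2 was 24.7 kb and Fabp5 196 kb away on one side. The genes of the cluster did not share a direction, as Fabp5 and Pmp2 were higher and Fabp4 lower in Kai1 KO, and Fabp9 and Fabp12 were listed at 0 in both. Farther out on the side of Fabp12, Impa1 was at 4.66 and 5.94 RPKM and Zfand1 at 2.16 and 3.29. Chmp4c was at 1.40 in WT and 0.188 in Kai1 KO, and Snx16 at 1.86 and 0.289, log2 ratios of -2.38 and -2.34.

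**Figure D4:**
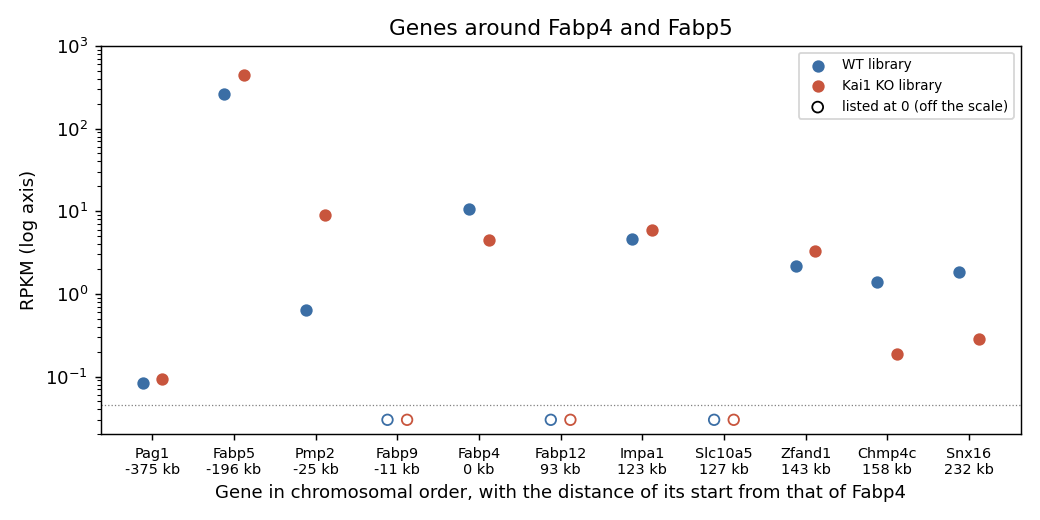
RPKM on a log axis in the WT (blue) and Kai1 KO (red) library for the genes around Fabp4 in chromosomal order, with the distance of each start from that of Fabp4 in kb and genes listed at 0 as open circles off the scale. Fabp5 and Pmp2 are higher in Kai1 KO, whereas Fabp4, Chmp4c and Snx16 are lower.

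Lpl encodes lipoprotein lipase, which is secreted by fat, muscle and macrophages and acts at the vessel surface. It was at 1.04 RPKM in WT and 0.0586 in Kai1 KO, from about 120 and 6 reads (chr8:71404390-71431347). WT was the higher by a log2 ratio of -2.85, or -4.15 with an interval from -5.65 to -3.01 without the added 0.1, the widest difference of the 10. Its mean of 0.549 RPKM was below the filter, so it is not among the calls. The Lpl transcript also holds a stretch of repeat, with 551 genome matches of at least 90% and none longer than 295 of its 4115 bases. Cd36, the fatty acid translocase (chr5:17287508-17394777), was listed at 0 in both libraries. A zero in Kai1 KO alone was rare among abundant genes, as 1 of 4594 genes with at least 10 RPKM in WT was listed at 0 in Kai1 KO. A gene at 0 in both libraries, like Cd36, could not enter that count. It therefore cannot tell absence from a gene left unmeasured in both. A count of 0 allows up to 3 reads, that is 0.0301 RPKM in WT and 0.0334 in Kai1 KO.

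Of 29 genes of fatty acid and lipoprotein uptake and activation, 28 were found, 19 were kept, 4 were called lower and 2 higher, and their median log2 ratio was 0.22. The calls were 21.1% and 10.5% of those kept, beside 7.81% and 7.98% of all genes kept. Besides Fabp3 and Fabp4, the lower ones were the lipoprotein receptor Vldlr, at 4.04 RPKM in WT and 1.10 in Kai1 KO, and the apolipoprotein Apoe, at 10.1 and 4.28. The higher ones were the receptor Lrp8, at 1.78 and 5.23, and Angptl4, at 25.0 and 68.9. Angptl4, a PPAR target, encodes a secreted inhibitor of lipoprotein lipase, and its log2 ratio of 1.46 had the sign opposite to that of Lpl. Its call was lost, at 0.96, when both libraries were scaled to Gapdh.

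Plin2 encodes perilipin 2, the coat protein found on lipid droplets of most cells. It was at 47.1 RPKM in WT and 32.2 in Kai1 KO, from about 2342 and 1446 reads (chr4:86294290-86315964). WT was the higher, with a log2 ratio of -0.55 and an interval from -0.64 to -0.45, and 17.5% of the genes kept had a lower ratio. The interval does not cover that the Plin2 transcript, of 1888 bases, had 2 other genome matches of at least 90% identity. The best was at 96.5%, and the longest match was 625 bases. Plin3, which coats small droplets, was at 48.7 and 30.8 RPKM, so that the ratio of Plin2 to Plin3 was 0.966 in WT and 1.05 in Kai1 KO. The change of that ratio, 0.12 ± 0.13 on the log2 scale, was within counting error. Plin4, a perilipin of white fat and muscle, was at 5.35 and 1.61 RPKM, a log2 ratio of -1.67. The perilipins summed to 101 RPKM in WT and 64.7 in Kai1 KO, with Plin1, the coat of the large droplet of the fat cell, at 0.0407 and 0.

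Of 31 genes of lipid droplets and triglyceride synthesis, 22 were kept, 3 were called lower and 2 higher, and their median was -0.20. The calls were 13.6% and 9.09% of those kept, beside 7.81% and 7.98% of all genes kept. The lower ones were Plin4, the acyltransferase Mogat2 at 2.36 RPKM in WT and 0.0953 in Kai1 KO, and the phosphatidate phosphatase Lpin3 at 3.83 and 0.738. The higher ones were the acyltransferases Agpat2, at 2.08 and 5.43, and Agpat4, at 18.0 and 37.0. Neither higher call held with scaling to Gapdh, under which 8 genes were lower and 0 higher. Under that scaling 1856 of all 10068 genes kept were lower and 278 higher. Of 14 genes of lipolysis, 7 were kept, 0 were called lower and 0 higher, and their median was 0.12. The most abundant of these, the monoglyceride lipase Mgll, was at 26.1 RPKM in WT and 14.8 in Kai1 KO, and the triglyceride lipase Pnpla2 was at 12.1 and 11.1.

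Adipoq encodes adiponectin, the hormone that fat cells alone secrete in quantity (chr16:23146609-23158101). It was listed at 0 in both libraries, where 3 reads would be 0.0935 RPKM in WT and 0.104 in Kai1 KO. The other defining genes of mature fat cells were as low. Lep, Cfd, Cidec, Cidea and Ucp1 were listed at 0 in both, and Plin1 was at 0.0407 RPKM in WT and 0 in Kai1 KO. The exception was Retn, which encodes resistin, at 0 in WT and 2.17 RPKM in Kai1 KO from about 53 reads, at least 19.5-fold higher against a limit of 3 reads in WT. Of 27 markers of mature adipocytes, 20 were below 1 RPKM in both libraries and 8 of these were at 0 in both. Of the 5 kept, too few to set against the background shares, Fabp4 and Plin4 were called lower and Retn higher. The 6 markers of brown fat were all below 1 RPKM and summed to 0.140 in WT and 0.154 in Kai1 KO.

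The wider regulators of fat cell formation were compared through the lists. Of 34 adipogenic transcription factors and coactivators, 22 were kept, 2 were called lower and 0 higher, and their median log2 ratio was -0.20. The calls were 9.09% and 0% of those kept, beside 7.81% and 7.98% of all genes kept. The lower ones were Ebf1, which acts with PPARγ in early differentiation, at 3.78 RPKM in WT and 1.10 in Kai1 KO, and Zfp467, a zinc finger cofactor of adipogenesis, at 2.07 and 0.444. Scaling to Gapdh brought the called lower to 8, and those among all 10068 genes kept from 786 to 1856. Of 29 inhibitors of adipogenesis, 28 were found and 25 were kept, 4 were called lower and 2 higher, with a median of 0.07. These calls were 16% and 8% of those kept, beside the same shares of all genes. With scaling to Gapdh 11 were lower and 1 higher, and with the median or the upper quartile made equal 6 were lower. The lower ones were Msx2 at 7.84 RPKM in WT and 0.536 in Kai1 KO, Trib3 at 32.5 and 8.68, Ddit3, and Klf2 at 13.4 and 5.45. The higher ones were the forkhead factor Foxa2, at 1.84 and 10.9, and Dlk1, the preadipocyte surface protein that holds differentiation back, at 4.85 and 10.6, whose call was lost with equal upper quartiles (0.98) and with scaling to Gapdh (0.61).

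Among 37 genes of the PPAR family, its partners and its targets, 23 were kept, 2 were called lower, Fabp4 among them, and 1 higher (Angptl4), and the median was -0.15. The calls were 8.70% and 4.35% of those kept, near the shares of all genes given below. Of 17 markers of adipocyte progenitors, 13 were kept, 4 were called lower and 4 higher (30.8% each), and the median was -0.26. The lower ones were Icam1 at 6.69 RPKM in WT and 0.704 in Kai1 KO, Pi16 at 1.98 and 0.384, the stem cell antigen Ly6a at 1354 and 569, and the growth factor receptor Pdgfra at 2.01 and 0.854. The higher ones were Cd34 at 1.44 and 7.76, Bmp4 at 9.24 and 28.4, Cd24a at 53.5 and 116, and Dlk1. With equal upper quartiles or scaling to Gapdh 2 remained higher, as Dlk1 and Cd24a (0.99 and 0.62) lost their calls. Taking all 10 lists as 1 set of 198 genes, 128 were kept, 14.1% were called lower and 9.38% higher, beside 7.81% and 7.98% of all genes, with a median of -0.15.

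**Figure D5:**
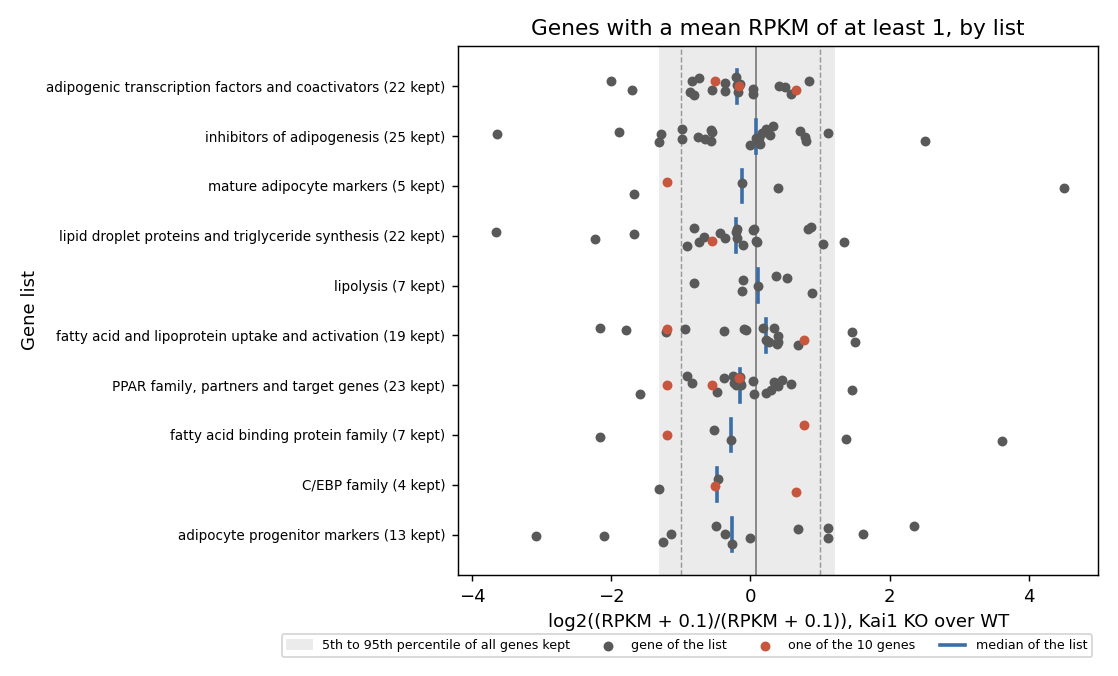
log2 ratio of Kai1 KO over WT for each kept gene of the 10 gene lists (points, with genes of the set of 10 in red and the list median as a blue bar), over the 5th to 95th percentile of all genes kept (grey band), their median (solid line at 0.08) and the 2-fold lines (dashed). The list medians lie between -0.49 for the C/EBP family and 0.22 for fatty acid and lipoprotein uptake, whose sign depends on the scaling, and genes past 2-fold stand on both sides in 7 of the 10 lists.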

How the data were processed

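RNA of cultured PVCs was measured in 1 WT and 1 Kai1 KO library. The authors aligned reads to mm9 with TopHat2 2.0.9 and Bowtie, named with Cufflinks in the submitters' processing notes, and deposited 1 RPKM value per gene and library. The depth was not given in the sources used here. The authors' Cuffdiff tests were not used. The 20462 rows held 38 with no symbol, which were dropped, and 153 symbols given more than once, whose values were averaged.

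A ratio was log2((RPKM + 0.1)/(RPKM + 0.1)), a gene was kept where its mean RPKM reached 1, and more than 2-fold was called. The members and gene lists were chosen with earlier results of these data known. The genes named were the 10, Cd82, genes called in each list (at most 4 per direction, otherwise the most abundant), defining adipocyte markers and the neighbours of Fabp4, and 1 gene called in a list is not reported here. Plin3, Ppard, Rxra, the Y-linked genes and marker examples were added as comparisons after their values were seen. Reads were estimated by fitting values of at most 8 reads to whole reads, with transcript length less a fragment length of 210 bases. Of the values fitted, 81.2% in WT and 79.1% in Kai1 KO lay within 0.15 of a whole read. Intervals are exact binomial at 95% and cover counting error only, and PCR copies are not independent. Gene positions are from GENCODE M1 on NCBI37 (mm9), promoters from RefSeq on GRCm38.p6, and matches from blastn 2.17.0 and mafft 7.526. The ratio and read fit were tested on simulated data. Alternatives were other pseudocounts, scalings, filters and summed symbols. Python 3.11.15, numpy 2.4.6, pandas 2.3.3, scipy 1.17.1 and matplotlib 3.10.9 were used.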

Additional observations from a re-analysis of the deposited data

How the results depend on the processing

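No paired analysis was possible because only 1 WT and 1 Kai1 KO library exist here. No ratio of the 8 members above 0 changed sign under a pseudocount of 1 or 0.01 RPKM under 3 scalings of the libraries or with repeated symbols summed (48 ratios recomputed), and 5 crossed the 2-fold line. These were Cebpa at 0.68 and Lpl at -0.95 with 1 RPKM added, and Cebpa at 0.88, Cebpb at just past -1 and Plin2 at -1.04 with both libraries scaled to Gapdh. Scaling to Gapdh, itself 1.41-fold higher in Kai1 KO, lowered the median of all genes kept from 0.08 to -0.41. It gave 3 members called lower with a member median of -0.82, and 1856 genes lower and 278 higher. With upper quartiles made equal the member median was -0.46. Without the filter, 2 members were called lower and 1 higher, the member median was -0.0804, and 1878 genes were lower and 1205 higher. With a mean of at least 5 RPKM the member median was -0.51, and 350 genes were lower and 511 higher. Of 160 list counts recomputed, 126 stayed within 1.5 times. Members with under 150 reads in a library (Pparg, Cebpa, Fabp4, Lpl) are limited by depth, and with 1 library per genotype no variation between animals or cultures could be measured.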
